A study of Mus musculus with 8 samples.

Results

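Translation initiation and elongation factors are the proteins that bring a ribosome to a start codon and move it along an mRNA. Their genes were taken from the deposited counts of CD11b+ brain cells by symbol, as every symbol beginning with Eif1 to Eif6, without the 4 kinases Eif2ak1 to Eif2ak4, or with Eef1 or Eef2. The rule found 59 of the 20308 gene symbols, of which 51 began with Eif and 8 with Eef. It also takes in genes of regulators, such as *Eef2k* and *Eif4ebp1*. In all, 58 passed the filter on low counts. The other gene, *Eif4e1b*, had no count in any of the 8 libraries, which allows at most between 0.177 and 0.266 CPM by library, where CPM is the count per 1e6 counts of the scaled library.

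During initiation the factor eIF2 carries the initiator tRNA to the small ribosomal subunit, which eIF3 also binds. The factors eIF1, eIF1A and eIF5 check the start codon. The cap-binding complex eIF4F, made of eIF4E, eIF4G and the helicase eIF4A, recruits the mRNA. Elongation needs eEF1A, which delivers aminoacyl-tRNA and is recharged by the eEF1B complex, and eEF2, which moves the ribosome by a codon. Many mRNAs of this machinery, like those of the ribosomal proteins, begin with a 5′ terminal oligopyrimidine (TOP) tract through which mTORC1 controls their translation.

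RNA came from cells enriched with CD11b beads, after removal of myelin with Percoll, from the right brain hemisphere of 4 CSF1 OE mice and 4 control mice. All were F1 offspring of C57Bl/6 and CD1, aged 14 or 15 days and perfused with PBS, with 1 library per mouse. CSF1 OE mice carry the secreted form of CSF1 as a transgene of the TRE/tTA system that is active in a subset of GFAP+ cells, so the cells measured here were exposed to CSF1 made by other cells. Which transgenes the control mice carried is not given in the sources used here. CD11b is found on microglia and on other myeloid cells, and in such bulk samples fewer cells of a type and less RNA per cell cannot be told apart.

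Total counts lay between 12908159 and 15475476 in control and between 12053272 and 14356554 in CSF1 OE libraries. All 12 microglial markers listed were detected, with a summed level between 23684 and 41298 in control and between 30805 and 42662 CPM in the CSF1 OE mice. Other cells were present too. Of 7 markers of border macrophages, which also carry CD11b, 7 were lower in CSF1 OE, 5 of them at an unadjusted p under 0.05, with a median log2 fold change of -0.47, and 5 of 5 tested red blood cell markers were lower with a median of -1.58. The sum of 7 oligodendrocyte markers was 2981 to 6216 in control and 1628 to 4999 CPM in the CSF1 OE, and that of 8 endothelial markers was 1287 to 1849 CPM against 679.8 to 1429 CPM, with 8 of 8 lower in CSF1 OE. Not every list was lower: 5 of 5 tested neutrophil markers were higher, with a median of 0.29. Their groups overlapped, and the sum of 6 neutrophil markers was 42.7 to 92.7 in control and 14.9 to 215.9 CPM in the CSF1 OE mice. Of 15 cell cycle genes 15 were higher, and their sum was 624 to 1161 in control and 1255 to 1571 CPM in the CSF1 OE mice. *Csf1* itself ranged from 139 to 364 in control and from 167 to 400.1 CPM in the CSF1 OE mice, and the groups overlapped in these CD11b+ cells.

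As a group the translation factor genes were higher in CSF1 OE mice by a small amount. Of the 58 tested, 52 had a log2 fold change (CSF1 OE against control) above 0 and 6 below 0, where 44.8% of all genes tested were above 0. The median log2 fold change was 0.25, or 18.7% more, against -0.03 over all 13407 genes. The CSF1 OE mice lay above every control mouse in 19 of the 58 genes, or 32.8%, where 6.84% of all genes did so, and below every control mouse in 1, where 3.45% did. An unadjusted p under 0.05 with a higher level was found in 31 members, or 53.4%, where 10.1% of all genes had one. Most of these differences did not pass the thresholds for a call. A gene was called at a Benjamini-Hochberg adjusted p under 0.05 from edgeR's quasi-likelihood test and a fold change under 0.7 or over 1.43, and 1 of the 58 genes was called, *Eef1b2*, where 0.44% of all genes were called, 0.388% higher and 0.0522% lower. No member was called lower by edgeR, where 1 was lower at an unadjusted p under 0.05 (6.44% of all genes were), or by DESeq2. The Wald test of DESeq2 called 3 members higher, where it called 2.09% of all genes higher. At an adjusted p under 0.05 and any fold change edgeR passed 1 member, where 0.507% of all genes passed. This count depended on the model. DESeq2 passed 17 members as higher, where 4.39% of all genes were, and *Eif4a2* as lower. With the range of animal numbers as a term, edgeR passed 10 as higher (4.28% of all genes), of which *Eif1a* was called (2.26% of all genes were called higher), and with a term for other cell types it passed 7 as higher (2.19% of all genes) and *Eef2k* as lower. The count above every control mouse rose to 32 members without control mouse 1827 and to 30 without CSF1 OE mouse 1932, where the share of all genes rose to 12.1% and 10%. At an adjusted p under 0.1, 8 members were higher, where 2.27% of all genes were.

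**Figure D1:**
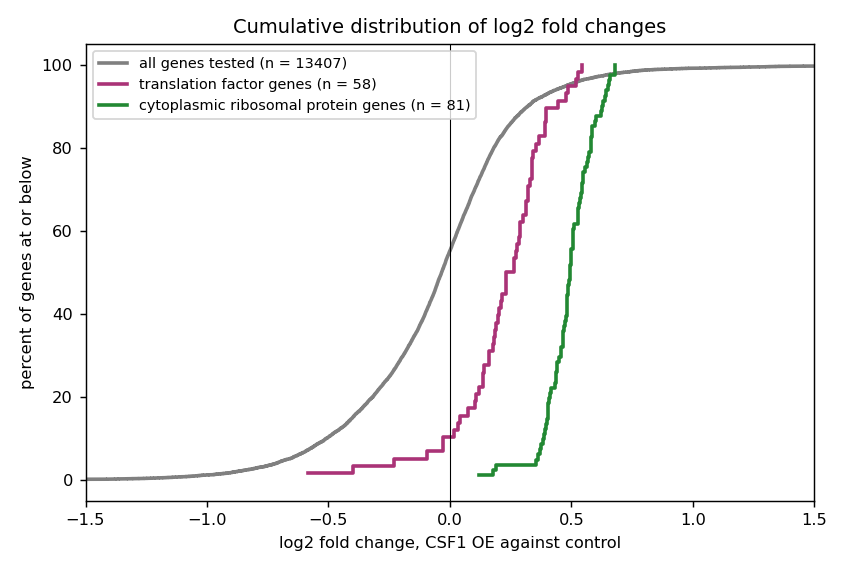
The percent of genes (y axis) at or below each log2 fold change of CSF1 OE against control (x axis) is drawn for all 13407 genes tested, the 58 translation factor genes and 81 cytoplasmic ribosomal protein genes. The curve of the translation factor genes lies to the right of that of all genes up to about its top and to the left of that of the ribosomal protein genes, with medians of 0.25, -0.03 and 0.49.

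The translation factor genes took between 1.49% and 1.66% of the counts of a control library and between 1.84% and 2.002% of a CSF1 OE library. Their summed level was 15614 ± 746 in control and 19658 ± 858 CPM in the CSF1 OE mice (SD, n = 4 each). Every CSF1 OE sum was above every control sum. Without *Eef1a1*, which alone held between 33.8% and 39.0% of these counts, the sums were 10269 ± 511 CPM and 12179 ± 660.02 CPM, and the groups were also apart. The share of *Eef1a1* itself was 34.2 ± 0.310% in control and 38.1 ± 1.09% in CSF1 OE mice.

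**Figure D2:**
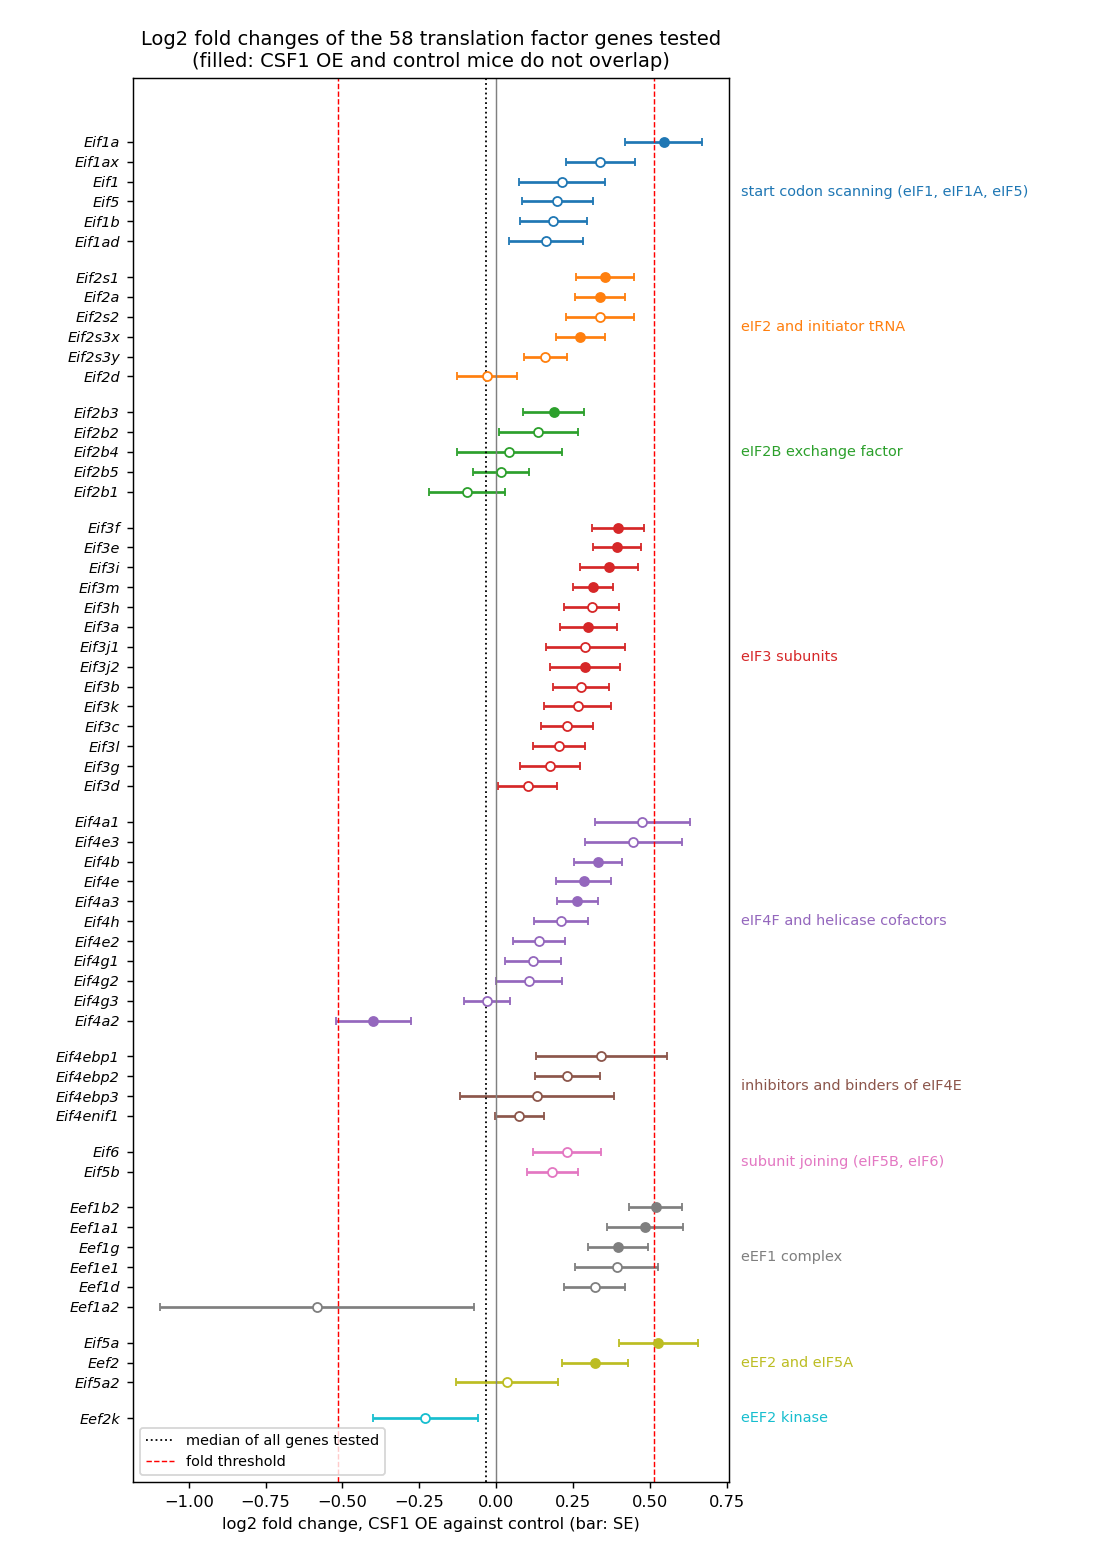
Each point is the log2 fold change of 1 of the 58 translation factor genes tested (x axis, bars are standard errors from edgeR), grouped by role, and filled points mark genes whose CSF1 OE and control mice did not overlap. Most points lie between 0 and 0.5, the eIF2B genes lie near 0, and *Eif4a2* is the filled point below 0.

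Of the 6 genes whose symbols begin with Eef1, 5 were higher and 1 was called. *Eef1b2* (chromosome 1, 63176825 to 63180486 on GRCm38, plus strand) encodes eEF1B alpha, which exchanges GDP for GTP on eEF1A. Its level was 257, 221, 231 and 220.0 CPM in the control mice numbered 1827, 1872, 1874 and 1934 and 338, 344, 346 and 304 CPM in the CSF1 OE mice numbered 1931, 1932, 1936 and 2019. The 4 CSF1 OE mice were all above the 4 control mice. The log2 fold change was 0.52 (SE 0.086, adjusted p = 0.0492 from edgeR), just past both thresholds. Over 19 alternative analyses the log2 fold change was 0.43 to 0.57 and the adjusted p 7.48e-08 to 0.186. The adjusted p was under 0.05 in 9 of them and the gene was called in 7.

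*Eef1a1* (chromosome 9, 78478449 to 78489151) encodes the eEF1A of most tissues and had the highest level of all members. It had 5669, 5212, 5379 and 5119 in control and 7829.8, 7278, 7601 and 7207 CPM in the CSF1 OE mice, again without overlap. Its log2 fold change was 0.48 (SE 0.12, adjusted p = 0.108 from edgeR), and it was not called. *Eef1g*, the eEF1B gamma subunit, had 287 ± 30.5 in control and 377 ± 24.9 CPM in the CSF1 OE mice, also without overlap (log2 fold change 0.40, SE 0.099, adjusted p = 0.103 from edgeR). *Eef1d*, the delta subunit, had a log2 fold change of 0.32 and *Eef1e1*, a small member that joins the multi-synthetase complex, one of 0.39. In both the lowest CSF1 OE mouse was below the highest control mouse. *Eef1a2*, the eEF1A of neurons and muscle, was near the bottom of the range with 8.27 ± 4.78 in control and 5.51 ± 3.16 CPM in the CSF1 OE mice. Its groups overlapped (log2 fold change -0.58, SE 0.51, adjusted p = 0.598 from edgeR), and its highest value, 14.5 CPM, was in control mouse 1934, which also had the highest sum of 8 neuronal markers, 359 CPM.

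The other genes of elongation were split. *Eef2*, the translocase, had 2048, 1873, 1847 and 1767 in control and 2545, 2289.5, 2319 and 2269 CPM in the CSF1 OE mice. The groups did not overlap, with a log2 fold change of 0.32 (SE 0.11, adjusted p = 0.195 from edgeR). *Eif5a* carries the modified lysine hypusine and helps the ribosome past stretches such as consecutive prolines. It had 232, 182, 198 and 187 in control and 345, 247, 302 and 259 CPM in the CSF1 OE mice. Its log2 fold change of 0.53 (SE 0.13) was past the fold threshold, but the adjusted p was 0.0948 from edgeR. Its paralog *Eif5a2* had 9.96 ± 1.43 and 10.2 ± 1.59 CPM (log2 fold change 0.03, SE 0.17). *Eef2k*, whose kinase inhibits eEF2, had 209 ± 43.2 in control and 178 ± 27.3 CPM in the CSF1 OE mice, and its groups overlapped (log2 fold change -0.23, SE 0.17, adjusted p = 0.531 from edgeR). The sign turned with a term for animal numbers (0.03, adjusted p = 0.871 from edgeR), and the log2 fold change was -0.43 (adjusted p = 0.0497 from edgeR) with a term for other cell types.

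**Figure D3:**
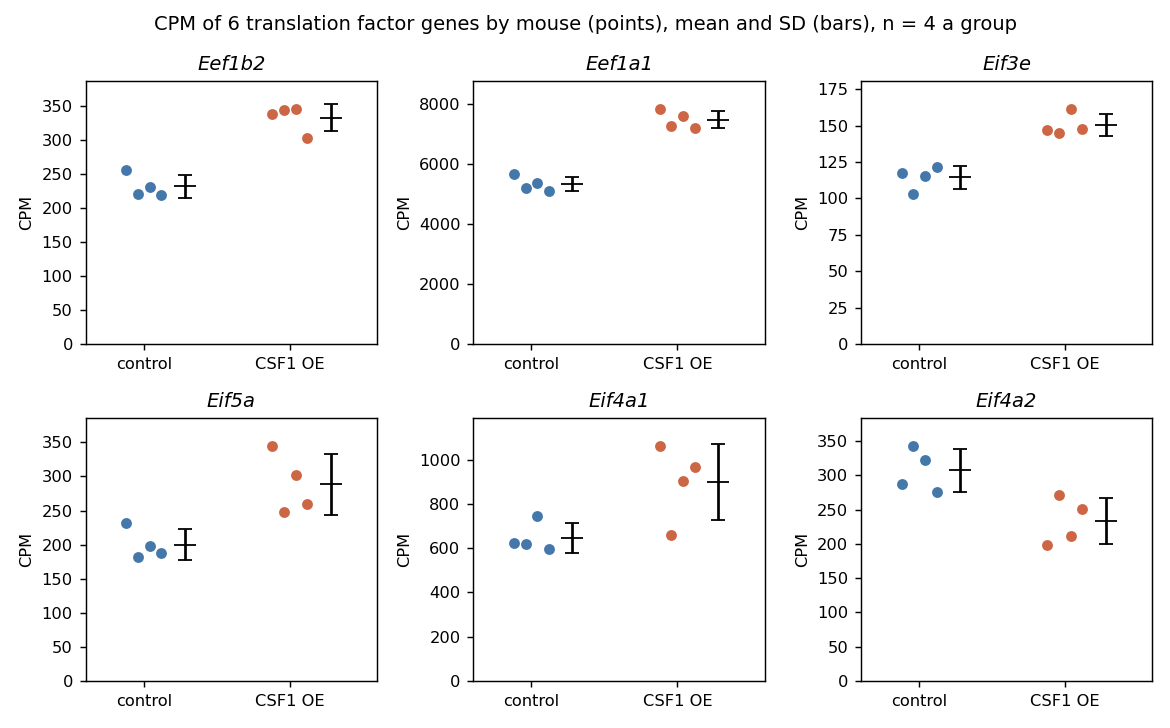
Points give the CPM of 6 translation factor genes in each mouse (y axis from 0), with the mean and SD of the 4 mice of a group beside them. *Eef1b2*, *Eef1a1*, *Eif3e* and *Eif5a* show CSF1 OE mice above all control mice, *Eif4a1* overlaps through CSF1 OE mouse 1932, and *Eif4a2* shows CSF1 OE mice below all control mice.

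The eIF3 complex is the largest initiation factor, and its 14 genes all had a log2 fold change above 0, from 0.10 to 0.40 with a median of 0.29. An unadjusted p under 0.05 with a higher level was reached by 11 of 14, where 10.1% of all genes had one. The CSF1 OE mice lay above every control mouse in 6, where 6.84% of all genes did so. No eIF3 gene was called, where 0.44% of all genes were. *Eif3e* (chromosome 15, 43250058 to 43282719) had 118, 103, 116 and 121 in control and 147, 145, 161 and 148 CPM in the CSF1 OE mice (log2 fold change 0.39, SE 0.077, adjusted p = 0.0558 from edgeR). *Eif3f* (chromosome 7, 108934417 to 108942951) had 156 CPM in control mouse 1827, between 133 and 136 CPM in the other control mice, and between 169 and 201 CPM in CSF1 OE mice (log2 fold change 0.40, SE 0.085, adjusted p = 0.0701 from edgeR). *Eif3m* (chromosome 2, 104999656 to 105017080) had 74.8 ± 2.90 and 93.1 ± 3.75 CPM (log2 fold change 0.31, SE 0.065, adjusted p = 0.0642 from edgeR). These subunits had the lowest p of the complex, and none overlapped. The subunit with the smallest change was *Eif3d*, which can itself bind the cap, with 86.1 ± 7.29 and 92.4 ± 9.05 CPM (log2 fold change 0.10, SE 0.095).

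Levels of the eIF3 genes were compared per kilobase of the longest coding transcript of GENCODE M21, which makes them approximate. In control mice *Eif3h* had 99.4 CPM per kilobase and *Eif3a*, the scaffold, 92.4, while *Eif3g* had 38.1. The loosely bound subunit eIF3j was lowest, with 18.9 for *Eif3j2* and 4.78 for *Eif3j1*. The counting may divide reads between these 2 related genes, and both had counts that were not whole numbers in 8 of 8 libraries, so their values are uncertain and their sum is given too. For control mice it was 70.7 ± 4.56 CPM (64.5 to 74.2), and for CSF1 OE mice 86.5 ± 12.4 CPM (74.4 to 103).

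**Figure D4:**
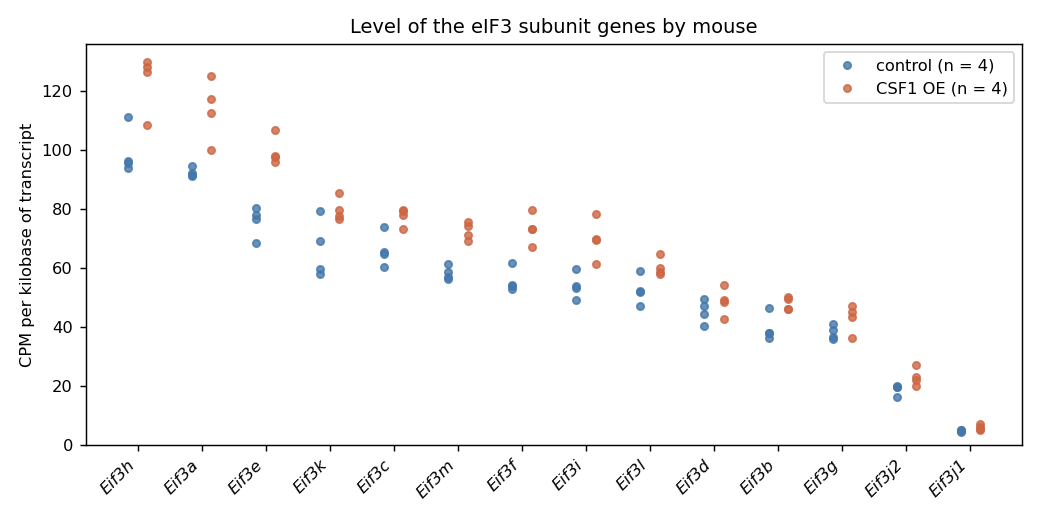
Points give the level of each of the 14 eIF3 subunit genes in each mouse as CPM per kilobase of transcript (y axis from 0), in falling order of the control mean. The CSF1 OE points lie higher for every subunit on average, and in 6 genes they do not overlap the control points.

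Among the genes for eIF2, all 3 core subunits had log2 fold changes above 0. *Eif2s1*, the alpha subunit that the stress kinases phosphorylate, had 63.4 ± 5.51 in control and 81.1 ± 7.55 CPM in the CSF1 OE mice (log2 fold change 0.35, SE 0.093, adjusted p = 0.119 from edgeR). *Eif2s2*, the beta subunit, had a log2 fold change of 0.34 (SE 0.11) and overlapped. The gamma subunit has an X-linked gene, *Eif2s3x*, at 131 ± 9.60 and 158 ± 7.92 CPM (log2 fold change 0.27, SE 0.080), and a Y-linked gene, *Eif2s3y*, at 81.7 ± 4.37 and 91.3 ± 3.72 CPM (log2 fold change 0.16, SE 0.069). *Eif2s3y* was present at 76.8 CPM or more in each of the 8 libraries. Of the factors that can deliver tRNA without eIF2, *Eif2a* had 43.9 ± 2.30 and 55.4 ± 3.95 CPM without overlap (log2 fold change 0.34, SE 0.082, adjusted p = 0.0937 from edgeR), while *Eif2d* had 18.3 ± 0.678 and 17.9 ± 1.30 CPM.

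The 5 subunits of eIF2B, the exchange factor that recharges eIF2, stood near the median of all genes. Their median log2 fold change was 0.04, from -0.10 for *Eif2b1* to 0.19 for *Eif2b3*. None had an unadjusted p under 0.05, although *Eif2b3* did not overlap, with 14.9 ± 0.953 in control and 17.0 ± 0.441 CPM in the CSF1 OE mice.

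The genes of start codon scanning were 6 of 6 higher, with a median of 0.21. *Eif1a*, an autosomal gene for eIF1A on chromosome 18, had the highest log2 fold change of all members above 0, 0.55 (SE 0.12, adjusted p = 0.0850 from edgeR). It had 95.5, 80.6, 77.5 and 87.8 in control and 150.0, 101, 126 and 121 CPM in the CSF1 OE mice, without overlap. Its X-linked partner *Eif1ax* had 45.3 ± 5.49 and 57.3 ± 5.97 CPM (log2 fold change 0.34, SE 0.11). *Eif1* and *Eif5*, which guard start codon fidelity, had log2 fold changes of 0.21 and 0.20 and overlapped. The *Eif1* paralog *Eif1b* and the eIF1A-related *Eif1ad* had 0.19 and 0.16, also with overlap.

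In eIF4F and its cofactors 9 of 11 tested genes were higher and 2 lower, and the 2 abundant paralogs of the helicase eIF4A had log2 fold changes of opposite sign. *Eif4a1* (chromosome 11, 69666936 to 69672423) had 625, 619, 746 and 596 in control and 1062, 660.2, 906 and 968 CPM in the CSF1 OE mice. The CSF1 OE mouse 1932 lay within the control range, and the log2 fold change was 0.48 (SE 0.16, adjusted p = 0.188 from edgeR). *Eif4a2* (chromosome 16, 23107444 to 23114136) had 288, 343, 323 and 275 in control and 199, 271, 211 and 251 CPM in the CSF1 OE mice. It was the single member with every CSF1 OE mouse below every control mouse (log2 fold change -0.40, SE 0.12, adjusted p = 0.165 from edgeR, from 0.0397 to 0.382 over 19 alternative analyses). Part of *Eif4a2* overlaps exons of *Rfc4* on the other strand over 167 bases, and the counting is not stated to use strand. The third paralog, *Eif4a3*, works in the exon junction complex and had 81.2 ± 4.28 and 97.5 ± 3.24 CPM without overlap (log2 fold change 0.26, SE 0.067, adjusted p = 0.108 from edgeR).

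The count of *Eif4a1* divided by that of *Eif4a2* does not depend on scaling. Both genes had counts that were not whole numbers in 8 of 8 libraries, so the counting may divide their reads with other genes, which leaves the ratio less certain. The ratio was 2.17, 1.81, 2.31 and 2.17 in control mice and 5.34, 2.44, 4.28 and 3.86 in CSF1 OE mice, so that every CSF1 OE mouse was above every control mouse. Over 10 such pairs of related genes, 2 had ratios that did not overlap between the groups, this one and *Eif2s3x* to *Eif2s3y*. The latter ratio was 1.52 to 1.69 in control and 1.71 to 1.76 in CSF1 OE mice, a small difference. How often the ratios of other gene pairs were apart was not computed, so 2 of 10 has no background beside it. The sum of *Eif4a1* and *Eif4a2* overlapped, at 954 ± 85.3 CPM for control mice (872 to 1069) and 1132 ± 147 CPM for CSF1 OE mice (931 to 1261).

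**Figure D5:**
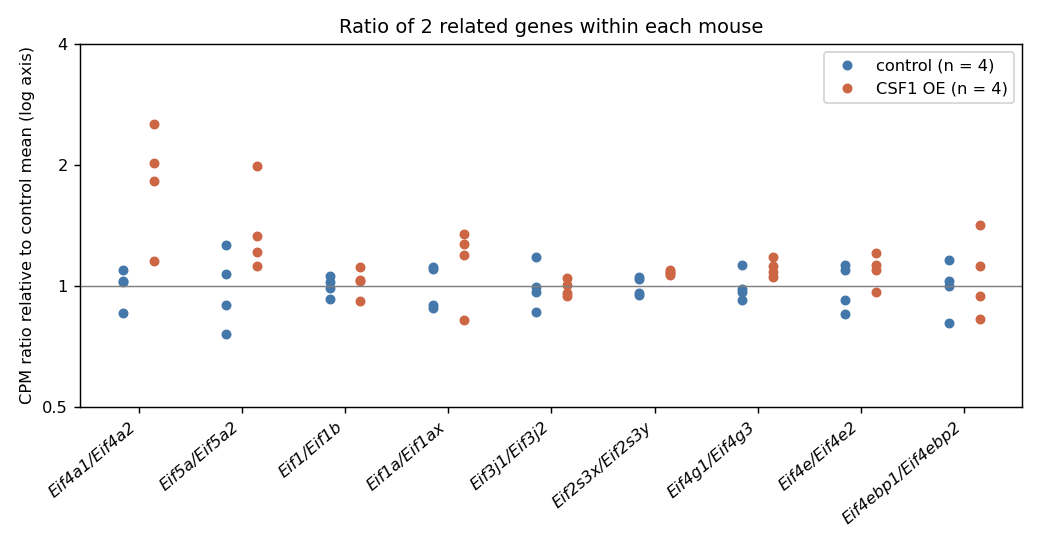
Points give, for each mouse, the CPM of 1 gene divided by that of a related gene, relative to the mean of the 4 control mice (log axis), for 9 of the 10 pairs (*Eef1a1* to *Eef1a2*, which rests on few counts, is left out). The ratio of *Eif4a1* to *Eif4a2* is above the control range in 4 of 4 CSF1 OE mice and most pairs overlap.

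Of the other eIF4F genes, *Eif4b*, a cofactor of the helicase, had 340.5, 304, 325 and 326 in control and 428, 396, 416 and 389 CPM in the CSF1 OE mice (log2 fold change 0.33, SE 0.078, adjusted p = 0.0899 from edgeR). *Eif4e*, the cap-binding protein, had 75.7 ± 5.76 and 92.3 ± 8.48 CPM without overlap (log2 fold change 0.28, SE 0.090). Its relatives *Eif4e2* and *Eif4e3* had log2 fold changes of 0.14 (SE 0.084) and 0.45 (SE 0.16). Both overlapped, *Eif4e3* only because the lowest CSF1 OE mouse, at 15.11 CPM, was just below the highest control mouse, at 15.14 CPM. The scaffolds had smaller log2 fold changes. *Eif4g1* had a log2 fold change of 0.12 (SE 0.092) and *Eif4g3* one of -0.03 (SE 0.075), and both overlapped. *Eif4g2*, which lacks the eIF4E binding site, had 1425 ± 81.4 and 1535 ± 123 CPM. The inhibitors of eIF4E were all above 0 without reaching an unadjusted p under 0.05. *Eif4ebp1* had 6.75 ± 1.11 and 8.55 ± 2.21 CPM and *Eif4ebp2* 44.7 ± 5.02 and 52.4 ± 4.46 CPM. *Eif4enif1*, which carries eIF4E into the nucleus, had a log2 fold change of 0.08 (SE 0.080). In subunit joining, *Eif5b* and *Eif6* had log2 fold changes of 0.18 and 0.23, and their groups overlapped.

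Translation factors known from the literature to have TOP mRNAs were compared with the other members. The list held *Eef1a1*, *Eef1b2*, *Eef1d*, *Eef1g*, *Eef2*, *Eif3e*, *Eif3f*, *Eif3h* and *Eif4b*. Of these 9 genes 9 were higher and 9 had an unadjusted p under 0.05, with a median log2 fold change of 0.39. The groups were apart in 7 of 9. Among the other 49 tested members the median was 0.21, 43 were higher, 22 were higher at an unadjusted p under 0.05 and 12 lay above every control mouse. Over all genes tested, 10.1% were higher at an unadjusted p under 0.05 and 6.84% lay above every control mouse. The difference between these 2 lists of members was not tested. The median of the cytoplasmic ribosomal protein genes, whose mRNAs also carry the tract, was 0.49, and 76 of 81 lay above every control mouse.

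The annotated start sites of several of these genes are shown because a TOP mRNA is defined by the bases at its 5′ end. Each line gives 15 bases before and 15 bases from the RefSeq start of the gene on GRCm38.p6, 5′ to 3′ on the coding strand. The longest unbroken run of C or T is in capitals, or the first of equally long runs.
Eef1a1 at chr9:78481710-78481739, minus strand: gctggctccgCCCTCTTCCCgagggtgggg
Eif3f at chr7:108934400-108934429, plus strand: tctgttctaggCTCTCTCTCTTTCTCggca
Eef1b2 at chr1:63176816-63176845, plus strand: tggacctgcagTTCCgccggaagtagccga
Eef2 at chr10:81176616-81176645, plus strand: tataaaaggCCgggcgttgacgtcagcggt
Eif4b at chr15:102073758-102073787, plus strand: ggTCTTCCCgtcggacgccgcgccaccccc
Eif3m at chr2:105017013-105017042, minus strand: TTTTCCggtcggcgtgtttctggatcggag
Eif4a1 at chr11:69672409-69672438, minus strand: acaaagtaacgTCacgtcgagttgcagagc
Eif4a2 at chr16:23107453-23107482, plus strand: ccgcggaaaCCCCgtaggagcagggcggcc
Among the known TOP members shown the run is 15 bases for *Eif3f*, 10 for *Eef1a1*, 7 for *Eif4b*, 4 for *Eef1b2* and 2 for *Eef2*. For *Eif3m*, *Eif4a1* and *Eif4a2*, which are not on that list, it is 6, 2 and 4 bases. Only the runs of *Eif3f* and *Eef1a1* cross the annotated start. In *Eef1b2*, *Eif4b*, *Eif3m* and *Eif4a2* the run lies wholly before it, outside the annotated mRNA. In *Eef2* and *Eif4a1* the run in capitals also lies before it, but other runs of 2 bases lie after the annotated start. A run of at least 8 pyrimidines on the coding strand in this window was found for 10 of the 45 members in the RefSeq table (22.2%), of which 2 were among 5 known TOP members and 8 among 40 others, 27 of 65 ribosomal protein genes (41.5%) and 13.9% of 27025 RefSeq genes. The window includes the 15 bases before the annotated start, so a run in it need not lie in the mRNA. A run there is a description of these bases at an annotated start, which can lie away from the start used in these cells.

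The other genes of the translation pathway did not all follow the factors. In the list of 8 eIF2 kinases, phosphatase subunits and partners, *Eif2ak2* was called, the kinase PKR that is activated by double-stranded RNA and induced by interferon, from 35.8 ± 3.54 CPM in control to 67.5 ± 13.1 CPM in CSF1 OE mice (log2 fold change 0.91, SE 0.14, adjusted p = 0.0431 from edgeR). It was called in 11 of 19 alternative analyses (adjusted p from 2.12e-06 to 0.182) and was the only gene called by edgeR in 9 lists of other translation genes. Of 7 poly(A)-binding proteins and their partners 6 were above 0, but with a median of only 0.06. The highest was *Pabpc1*, which holds the mRNA tail, with 663 ± 65.0 and 974 ± 67.3 CPM without overlap (log2 fold change 0.55, SE 0.11, adjusted p = 0.0558 from edgeR). Among 16 tested helper factors 14 were above 0, led by *Gnb2l1*, the scaffold RACK1 on the small subunit, with 559 ± 59.1 and 797 ± 49.1 CPM (log2 fold change 0.51, SE 0.11, adjusted p = 0.0642 from edgeR). Of 4 termination and recycling factors 4 were above 0 with a median of 0.15, and *Etf1*, the release factor, had the lowest p of them (log2 fold change 0.51, SE 0.14, adjusted p = 0.142 from edgeR). Cytosolic aminoacyl-tRNA synthetases and their scaffolds were above 0 in 18 of 22, with a median of 0.13, and *Qars*, the glutaminyl-tRNA synthetase, had the lowest p among them with a log2 fold change of 0.30 (SE 0.073, adjusted p = 0.0937 from edgeR).

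The remaining lists had medians from -0.14 to 0.06, where that of all genes was -0.03. Of 21 mTORC1 pathway genes 10 were above 0, with a median of -0.01, and *Lamtor1*, which anchors mTORC1 at the lysosome, had the lowest p (log2 fold change 0.28, SE 0.11, adjusted p = 0.259 from edgeR). Of 10 tested targets of the integrated stress response 5 were above 0, with a median of -0.01, and none was called by edgeR, with 1 higher at an unadjusted p under 0.05 and 0 lower. *Psat1*, an enzyme of serine synthesis, had the lowest p (log2 fold change 0.47, SE 0.15, adjusted p = 0.174 from edgeR). Selenocysteine elongation had 3 of 5 above 0, with a median of 0.06, and *Sephs2*, which makes the selenium donor, had the lowest p (log2 fold change 0.34, SE 0.14, adjusted p = 0.289 from edgeR). Mitochondrial translation factors, which work on a separate ribosome, were above 0 in 3 of 9, with a median of -0.14. *Mtif3*, a mitochondrial initiation factor, had the lowest p among them (log2 fold change -0.49, SE 0.19, adjusted p = 0.247 from edgeR).

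Other measures moved with the genotype beside the factors. With a term for a score of 7 lists of other cell types, the median of the members was 0.19 and 50 of 58 were above 0. The cell cycle genes moved with the genotype too, and their part in the result was not tested. Shorter transcripts were higher in CSF1 OE mice over all genes, with a median log2 fold change of 0.07 for transcripts under 2000 bases, -0.04 for those from 2000 to under 4000 bases and -0.09 for those of 4000 bases or more. Within these classes the members had medians of 0.26 (21 genes), 0.27 (25 genes) and 0.19 (12 genes), and once a fitted trend on these lengths and GC content was taken out the median of all members was 0.22. The labels do not say that the animal numbers mark a batch. Mice 1931 to 1936 are 3 CSF1 OE mice and control mouse 1934, which had the lowest microglial marker sum of all 8 (23684 CPM). Among them the members had a median log2 difference of 0.31, with 47 of 58 higher in all 3 CSF1 OE mice than in the control mouse, where 35.2% of all genes were. Among the other 3 control and 1 CSF1 OE mice it was 0.23, with 43 of 58 in the CSF1 OE mouse higher than in every control mouse, where 32.3% of all genes were.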

How the data were processed

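RNA of CD11b+ cells was measured in 4 control and 4 CSF1 OE mice, grouped by the genotype code in each label. The authors mapped reads with Bowtie 1.0.0 and made expected counts per gene with RSEM 1.2.7, per their methods and the submitters' processing notes, which name the build mm10. Neither annotation nor strand setting is given in the sources used here. RSEM divides a read that fits several genes, and 16 members had counts that were not whole in all 8 libraries. A second deposited table holds a signal, the expected counts divided by 1 size factor per mouse by the authors. Its columns were all mapped.

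Expected counts were rounded and fitted over all genes with edgeR 4.0.16 (TMM, filterByExpr, glmQLFit, glmQLFTest) in R 4.3.3, with EBSeq of the study replaced by edgeR. CPM are scaled to TMM-normalized library sizes. Positions and lengths are from GENCODE M21, and all 59 members were matched. Genes named are called members, the largest rise and fall of each role, the 5 lowest p, the 3 highest levels per kilobase, the paralog pairs, and called or leading genes of the other lists. *Eef1d*, *Eef1e1*, *Eef1g*, *Eif2a*, *Eif2s2*, *Eif3a*, *Eif3g*, *Eif3h*, *Eif4a3*, *Eif4b*, *Eif4e1b*, *Eif4e3*, *Eif4g2* and *Eif5* were added after their values were seen. Members and lists were chosen with earlier results of these data known. Alternatives were DESeq2 1.42.0, limma 3.58.1 on log2 of the deposited signal plus 1, other factors, filters and thresholds, a robust prior, a term for animal numbers and each mouse left out. Removal of the length and GC trend (splines, 4 degrees of freedom) and a term for other cell types were added after the data were seen. The methods were tested on simulated data. The changed genes there had larger fold changes than any member here, so changes as small as those of the members were not covered. Nothing in the labels says more of the mice of a group than that they are separate animals, so p-values measure the spread between them. Intervals and floors (3 counts) cover counting error only.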

Additional observations from a re-analysis of the deposited data

Results flagged for a closer look

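In 70 groups of 4 mice, for the 35 translation factor genes named by the rule, the highest or lowest mouse was tested for its distance from the others, and 5 groups had a mouse past the 95% critical value of Dixon's test, where chance gives about 5% of groups. In control mouse 1827 *Eif3f* had 156 CPM against 133 to 136 CPM in the other control mice, and *Eif2s1* had 71.6 CPM against 59.7 to 61.3 CPM. Control mouse 1934 had 38.3 CPM of *Eif3j2* against 46.8 to 47.4 CPM. The CSF1 OE mouse 1931 had 11.8 CPM of *Eif4ebp1* against 7.08 to 7.86 CPM, and 54.4 CPM of *Eif6* against 42.2 to 43.1 CPM.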

How the results depend on the processing

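The median log2 fold change of the members lay between 0.19 and 0.29 in 19 alternatives and between 0.20 and 0.29 with a mouse left out, within the spread between mice (SD 0.0754) of the value reported. No member was called lower in 22 settings. The number called higher, 1 with all mice, was 0 when every gene with a count was kept, when each library had to hold 10 counts or more, and with upper-quartile factors, a robust prior, the length and GC trend removed, glmTreat, or an adjusted p under 0.01. The share of all genes called higher was 0.388% in the main fit. In these settings it was 0.232%, 0.42%, 0.119%, 0.283%, 0.104% and 0.0149% in that order, and it was not computed for the last. The number of members called higher was 3 with DESeq2's Wald test (*Eef1b2*, *Eif1a* and *Eif5a*), where 2.09% of all genes were. With a mouse left out it was 0 to 1. *Eef1b2* passed when control 1827 or CSF1 OE 2019 was left out, where 1% and 0.44% of all genes were called higher. No member passed without control 1872, 1874 or 1934 or CSF1 OE 1931, 1932 or 1936. In those fits the share of all genes called higher was only 0.0147% to 0.0958%, and 24 to 34 members were higher at an unadjusted p under 0.05 by edgeR. The term for animal numbers called *Eif1a*, where 2.26% of all genes were called higher. *Eef1b2* then had an adjusted p of 0.0265 from edgeR but missed the fold threshold (0.5002), as it did with 10 counts or more in each library (0.0446 at 0.5118). The number of members without overlap, 20 in both directions, was 21 to 33 with a mouse left out, 33 of them without control 1827 and 31 without CSF1 OE 1932, where the share of all genes above every control rose too (from 6.84% to 12.1% and 10%). Signs were followed for the 35 members named by the rule only, and they changed in 5 of these genes. *Eef2k* (from -0.23 to 0.0331) and *Eif5a2* (to -0.089) changed with the term for animal numbers, *Eif2b1* (0.016) with the term for other cell types, and *Eif4g3* (0.061) with the length and GC trend removed. With a mouse left out, log2 fold changes ranged from -0.0732 to 0.0107 for *Eif2d*, -0.0564 to 0.0031 for *Eif4g3* and -0.0557 to 0.1482 for *Eif5a2*. The causes were not tested. No paired analysis was possible because the genotypes share no replicate numbers. Depth limits the lowest members most: *Eef1a2* had 30 to 245 counts a library.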

Other observations

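Among the 4 CSF1 OE mice, mouse 1931 had the highest level of 22 of the 58 translation factor genes tested and mouse 1932 the lowest of 29. Among the 4 control mice, mouse 1827 had the highest level of 36 and mouse 1934 the lowest of 26. The median log2 deviation of the members from the control mean was 0.34, 0.15, 0.23 and 0.27 in CSF1 OE mice 1931, 1932, 1936 and 2019, and 0.10, -0.06, 0.00 and -0.05 in control mice 1827, 1872, 1874 and 1934, so that CSF1 OE and control mice did not overlap.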
